A study of Mus musculus with 8 samples.

Results

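The 8 genes described here encode proteins that seal the space between cells or span the pores of capillaries in the median eminence (ME), the floor of the hypothalamus that borders the pars tuberalis of the pituitary. They are F11r, Cldn3, Cldn5, Cldn9, Cldn10, Ocln, Tjp1 and Plvap, they were taken by name, and all 8 were found among the 27998 genes of the single-cell table and among the 55450 genes of the bulk table. The single-cell data are 1 10x Genomics library of ME pooled from 10 female wild-type C57BL/6 mice of 2 months. The bulk data are 7 Smart-seq2 libraries, 3 from control mice labelled WT and 4 from Rax-CreERT2::BrafV600E mice (called mutant here), all C57BL/6 with a labelled age of 2 months, and the study's methods place the dissection of both groups at 2 months after tamoxifen. In the mutants the Rax gene drives a tamoxifen-dependent Cre that switches on the oncogenic Braf allele in Rax+ tanycytes. The study reports a tumour in the ME of such mice at the time of dissection, and describes the mutant libraries as tumour tissue. The dissected tissue holds every cell type of the ME, the gene counts cannot show the mutant base, and whether the controls carried Cre is not given in the sources used here.

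Tight junctions close the gap between neighbouring cells. Claudins form their strands and decide which ions pass, occludin and the junctional adhesion molecules join the strands, and scaffolds of the zonula occludens family tie them to actin. The capillaries of the ME are fenestrated, and Plvap makes the diaphragms of their pores, whereas most brain capillaries are closed by the endothelial claudin Cldn5. Tanycytes are ventricle-lining cells of the hypothalamus, known for tight junctions that take over the barrier which the open capillaries lack.

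The 990 cells held 3284 to 57119 UMIs (unique molecular identifiers, each standing for 1 captured RNA molecule), with a median of 7831.5, and fell into 13 groups that were clustered without the 8 genes. Levels are given as CPM, the UMIs of a gene per 1000000 UMIs summed over the cells of a group, with the exact Poisson 95% interval in brackets. As all cells came from 1 library, these intervals cover counting error only and no test was made. The groups used most were 180 tanycyte-like cells with 7 of 8 tanycyte markers, 27 pars tuberalis cell (PTC)-like cells with 6 of 6 markers, 44 ependymal-like cells with 5 of 6 ependymal and 4 of 8 tanycyte markers, 81 macrophage- or microglia-like cells, and 2 groups of vascular and leptomeningeal cell (VLMC)-like cells, of which one (111 cells) also had 9 of 9 endothelial markers and the other (75 cells) had 2. In the PTC-like group, 3 of 6 genes that mark hormone cells elsewhere in the pituitary passed as markers too. Pars tuberalis markers summed to at least 20 UMIs in 18 of its 27 cells. Levels of the PTC-like group may therefore not be those of pars tuberalis cells alone. The 241 erythrocyte-like cells, which should lack the 8 genes, gave the background from free RNA. A group of 24 cells with a median of 3906 UMIs stayed unnamed. The 7 bulk libraries held 4928456 to 13816596 counts, and 17874 to 34942 genes had at least 1 count in the controls and 25910 to 40852 in the mutants. Mitochondrial genes took 3.07 to 5.54% of counts in the controls and 2.26 to 2.99% in the mutants.

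Among the claudins, Cldn10, which forms paracellular ion channels in epithelia, marked the ventricular lining. The gene lies at chr14:118787908-118875489 on the plus strand (GRCm38) and starts at either of 2 sites in RefSeq. Tanycyte-like cells held 2922 of its 3645 UMIs (80.2%), at 1599.6 CPM (1542 to 1659). The ependymal-like cells reached 734 CPM (651 to 825), so that the tanycyte level was 2.18 times theirs (1.93 to 2.47), and the unnamed group reached 710 CPM (562 to 885), within the interval of the ependymal-like cells. Of the tanycyte-like cells, 97.2% (93.6 to 99.1) had a UMI, or 90.0% when each cell was thinned to 3000 UMIs, against 12.03% (8.21 to 16.8) and 4.56% of erythrocyte-like cells. The ependymal-like shares, 93.2% (81.3 to 98.6) and 81.8%, were close to the tanycyte-like ones. Several other clusterings, given in the closing sections, had no separate ependymal class. Those of the unnamed group were 79.2% (57.8 to 92.9) and 66.7%. Tanycyte-like and erythrocyte-like cells had similar depth, with medians of 7889 and 7747 UMIs. The median tanycyte-like cell held 10.5 Cldn10 UMIs and the highest held 113.

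The PTC-like level of Cldn10, 385 CPM (319.9 to 459), came from few cells. Of the 27 PTC-like cells, 21 had no Cldn10 UMI, and 2 cells with 64 and 52 UMIs held 116 of the 124 UMIs of the group. The first of these had 587 UMIs of pars tuberalis markers and 11 of tanycyte markers, and the second had 11 and 2. The level in this clustering therefore describes 2 cells and not the group. All other groups lay between 15.7 CPM in erythrocyte-like and 72.1 CPM in VLMC-like cells without endothelial markers. With 30 components, with all variable genes and without doublets, the pars tuberalis class grew to between 51 and 56 cells. Its Cldn10 level there was 432 to 449 CPM, and which of its cells carried Cldn10 was not tested.

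The 250 bases before the first RefSeq start of Cldn10, at chr14:118787621-118787870 on the plus strand (GRCm38.p6), are shown because this member had the highest CPM of all members in tanycyte-like cells. Capitals mark matches to TAATTA, a core bound by paired-type homeodomain proteins, the class of Rax, on either strand.
Cldn10: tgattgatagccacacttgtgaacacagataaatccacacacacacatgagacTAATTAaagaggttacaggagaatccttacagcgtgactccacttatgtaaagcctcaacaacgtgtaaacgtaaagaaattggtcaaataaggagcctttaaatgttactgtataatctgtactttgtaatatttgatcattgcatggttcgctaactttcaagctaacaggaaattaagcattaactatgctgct
The window holds 1 match. Among 32851 RefSeq windows of this length, 4.84% hold at least 1, and none of the windows of F11r, Cldn3, Cldn5, Ocln and Tjp1 or of the second Cldn10 start does. These shares are not matched for base content. The window shown has 36.0% G or C and the other member windows 59.6 to 72.4%, and TAATTA holds neither letter. A match describes letters and not a binding site, and counts per gene do not show which Cldn10 start these cells use.

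Cldn9 and Cldn3 had their highest levels in PTC-like cells. Cldn9, a claudin known from the inner ear, lies at chr17:23682584-23684026 on the minus strand, and 119 of its 146 UMIs (81.5%) were in the 27 PTC-like cells, at 369 CPM (306 to 442). Tanycyte-like cells held 2 Cldn9 UMIs, 1.09 CPM (0.133 to 3.96), which makes the PTC-like level 337 times theirs with a wide counting interval of 91.3 to 2816. A Cldn9 UMI was seen in 22 of 27 PTC-like cells, 81.5% (61.9 to 93.7), or 70.4% at 3000 UMIs, and in 2 of 241 erythrocyte-like cells, 0.830% (0.101 to 2.97). The 13 Cldn9 UMIs of the VLMC-like cells without endothelial markers were largely of the same kind, since 10 of them were in 3 cells that had at least 20 UMIs of pars tuberalis markers.

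Cldn3, a sealing claudin of epithelia, lies at chr5:134986214-134987472 on the plus strand. Its highest level was 127 CPM (91.3 to 173) in PTC-like cells, 4.47 times (2.89 to 6.86) the 28.5 CPM (21.3 to 37.3) of tanycyte-like cells. As the tanycyte-like group is the larger, it held 52 of the 109 Cldn3 UMIs (47.7%) and the PTC-like group 41 (37.6%). A UMI was present in 15 of 27 PTC-like cells, 55.6% (35.3 to 74.5), and in 30 of 180 tanycyte-like cells, 16.7% (11.5 to 22.9), and in none of 241 erythrocyte-like cells, which allows a share of up to 1.24%. At 3000 UMIs the PTC-like and tanycyte-like shares were 22.2% and 6.67%. VLMC-like cells without endothelial markers had 11 Cldn3 UMIs, at 20.3 CPM (10.1 to 36.4). Their share with a UMI was 10.7% (4.72 to 19.9), or 8.0% at 3000 UMIs. Both claudins were found together in 14 of the 27 PTC-like cells, Cldn9 alone in 8, Cldn3 alone in 1 and neither in 4.

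**Figure D1:**
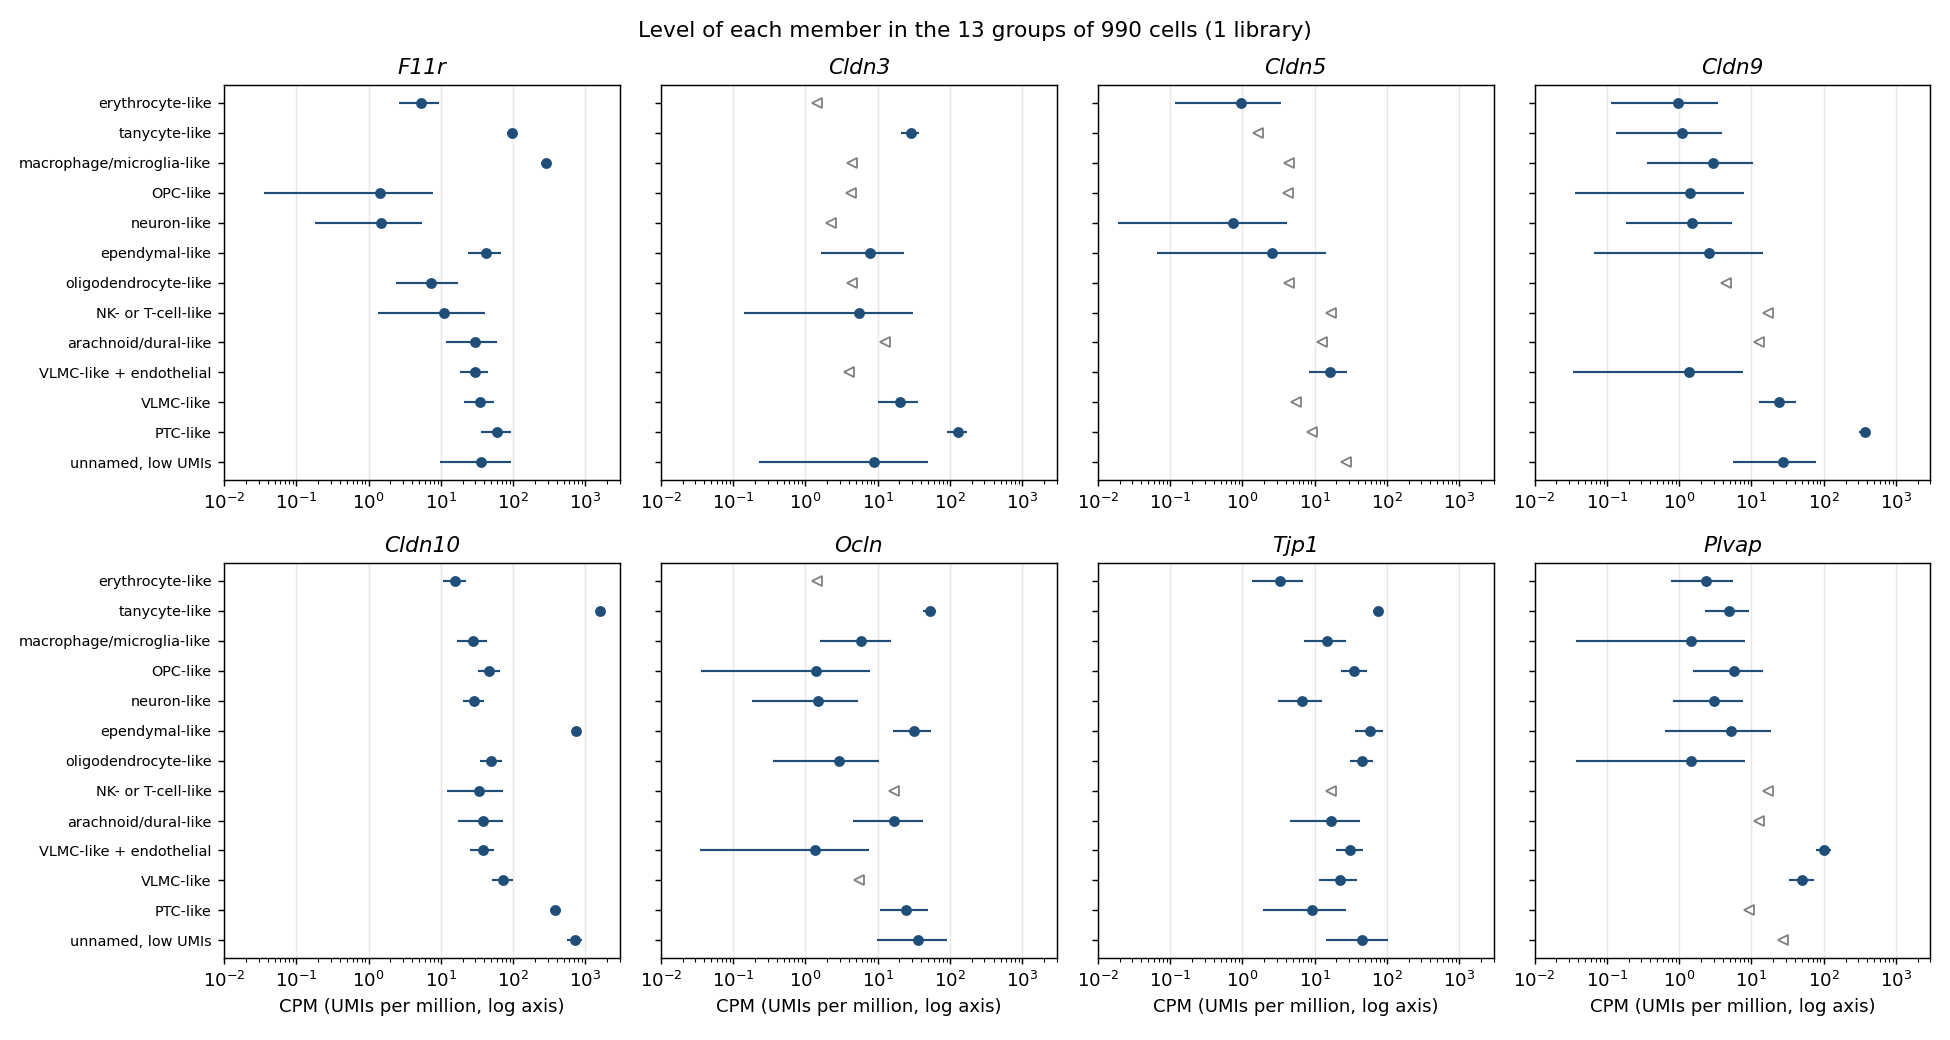
Level of each of the 8 genes in the 13 groups of cells, in CPM on a log axis, with exact Poisson 95% intervals, and open triangles at the limit of 3 UMIs where a group had none. Cldn10 reaches 1599.6 CPM in tanycyte-like cells, Cldn9 369 CPM in PTC-like cells and F11r 282 CPM in macrophage- or microglia-like cells, while Cldn5 is at most 16.2 CPM in the 4 groups where it had a UMI.

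The adhesion molecule F11r, also called junctional adhesion molecule A, had the highest level of the 13 groups in immune cells. It lies at chr1:171437535-171464603 on the plus strand. Macrophage- or microglia-like cells had 282 CPM (243 to 324), 2.91 times (2.36 to 3.59) the 96.9 CPM (83.1 to 112) of tanycyte-like cells, and held 191 of its 476 UMIs against 177 in the tanycyte-like cells. PTC-like cells had 58.9 CPM (35.5 to 92.0), and the intervals of the ependymal-like level, 41.8 CPM (23.9 to 67.9), and of both VLMC-like groups, 29.8 and 35.1 CPM, overlapped with it. The 7 cells chosen below by endothelial markers had 139 CPM (51.1 to 303) from 6 UMIs, an interval that overlaps with both leading groups. A UMI was seen in 71.6% (60.5 to 81.1) of macrophage- or microglia-like, 51.1% (43.6 to 58.6) of tanycyte-like and 4.56% (2.30 to 8.02) of erythrocyte-like cells, and at 3000 UMIs in 39.5%, 22.2% and 1.66%.

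Within the 81 macrophage- or microglia-like cells, the level followed the microglial markers. The 63 cells with more UMIs of P2ry12, Tmem119 and Cx3cr1, genes of microglia, than of Mrc1 and Pf4, genes of border macrophages, had 335 CPM (288 to 386). The 12 cells with the opposite balance had 35.2 CPM (7.25 to 103), and this split was chosen after the values were seen. Their shares with a UMI were 82.5% (70.9 to 90.9) and 25.0% (5.49 to 57.2), with median depths of 8382 and 6014.5 UMIs.

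The F11r window is shown because F11r had the strongest bulk difference of the 8 genes by p, given below. It spans chr1:171437311-171437560 on the plus strand (GRCm38.p6), and capitals mark GGGCGG, the GC box, on either strand, which 32.7% of windows hold. The last 26 of its bases lie in an exon of GENCODE M21.
F11r: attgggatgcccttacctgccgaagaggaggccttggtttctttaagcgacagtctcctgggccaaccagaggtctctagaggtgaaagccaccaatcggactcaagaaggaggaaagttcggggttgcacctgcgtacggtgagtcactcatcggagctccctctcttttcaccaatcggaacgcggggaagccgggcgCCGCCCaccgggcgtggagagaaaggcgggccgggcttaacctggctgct

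Occludin and the scaffold Tjp1 were highest in tanycyte-like cells, at modest levels. Ocln, at chr13:100496507-100552718 on the minus strand, encodes occludin, and 96 of its 134 UMIs (71.6%) were in tanycyte-like cells, at 52.6 CPM (42.6 to 64.2). The next levels were 36.0 CPM (9.80 to 92.0) in the unnamed group, 31.4 CPM (16.2 to 54.8) in ependymal-like cells and 24.8 CPM (10.7 to 48.9) in PTC-like cells. The ratio of tanycyte-like to ependymal-like cells, 1.68 (0.917 to 3.36), includes 1, so counting error alone covers that difference. A UMI of Ocln was seen in 35.6% (28.6 to 43.0) of tanycyte-like cells, 15.6% at 3000 UMIs, and in none of 241 erythrocyte-like cells. At 3000 UMIs the ependymal-like and unnamed groups had similar shares, 13.6% and 16.7%.

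Tjp1, at chr7:65296165-65527781 on the minus strand, encodes the zonula occludens scaffold. Its 289 UMIs were spread over 12 of the 13 groups, with 75.5 CPM (63.5 to 89.3) in tanycyte-like, 57.5 CPM (36.0 to 87.0) in ependymal-like and 45.2 CPM (30.7 to 64.1) in oligodendrocyte-like cells. The first of these did not differ from the second beyond counting error (ratio 1.31, 0.834 to 2.17), but it was 1.67 times (1.13 to 2.56) the third. PTC-like cells had 9.31 CPM (1.92 to 27.2) from 3 UMIs, and the pars tuberalis class had up to 19.2 CPM (8.78 to 36.4) in other clusterings, in which it grew from 27 to as many as 56 cells. A Tjp1 UMI was seen in 46.1% (38.7 to 53.7) of tanycyte-like cells and 2.90% (1.18 to 5.89) of erythrocyte-like cells, or 18.9% and 0.415% at 3000 UMIs. Ependymal-like and oligodendrocyte-like cells had 38.6% (24.4 to 54.5) and 54.5% (38.8 to 69.6), or 15.9% each at 3000 UMIs.

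Of the 180 tanycyte-like cells, 22 had a UMI of each of F11r, Ocln and Tjp1, 56 of 2 of them, 61 of 1 and 41 of none. A finer clustering at resolution 1.2, also built without the 8 genes, parted most tanycyte-like cells into 77 cells with the higher Dio2, the enzyme that activates thyroid hormone, and 101 cells with the lower Dio2. F11r was 0.499 times as high in the cells with the higher Dio2 (0.366 to 0.679), at 69.9 against 139.9 CPM. Cldn10 went the other way, at 1772 against 1351 CPM, a ratio of 1.31 (1.21 to 1.42). For Cldn3, Ocln and Tjp1 the ratios of 0.594 (0.331 to 1.06), 0.922 (0.602 to 1.42) and 1.22 (0.844 to 1.77) all include 1. The cells with the higher Dio2 were deeper, with a median of 12080 UMIs against 6665, and the part of depth in these ratios was not tested.

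Plvap and Cldn5, the marks of fenestrated and of sealed capillaries, came from very few cells. Plvap lies at chr8:71497765-71511752 on the minus strand and had 127 UMIs in 31 cells, of which 24 had a single UMI. Cldn5 lies at chr16:18776847-18778262 on the plus strand and had 16 UMIs in 5 cells. No cell had UMIs of both. The VLMC-like groups with and without endothelial markers had 100.1 CPM (78.6 to 126) and 49.9 CPM (32.9 to 72.6) of Plvap. The 74 UMIs of the first group were in 5 cells. In the second group, 1 cell with 29 UMIs of endothelial markers held 26 of the 27 UMIs. These levels therefore describe a few cells and not the groups. The share of cells with a UMI, 4.5% (1.48 to 10.2) and 2.67% (0.325 to 9.30), overlapped with the 2.07% (0.677 to 4.77) of erythrocyte-like cells. The tanycyte-like share of 3.89% (1.58 to 7.85) overlapped with it too, with at most 3 UMIs in a cell against 1 in erythrocyte-like cells. Overlapping shares cannot tell background from a few expressing cells.

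A second clustering did not part endothelial from VLMC-like cells, so endothelial cells were chosen by their markers. The 9 endothelial markers were Pecam1, Cdh5, Flt1, Kdr, Emcn, Egfl7, Ly6c1, Tie1 and Eng. The planned choice took cells of the vascular clusters with at least 2 UMIs over these 9 and fewer over the mural and over the VLMC markers. It gave 5 cells, with 1187 CPM (926 to 1500) of Plvap and 204 CPM (105 to 356) of Cldn5, but 1 of them had 2584 UMIs of pars tuberalis markers and 2 of endothelial markers. A choice made after the data were seen, at least 10 endothelial UMIs in any cell, gave 7 cells, and the other 983 cells had at most 7 such UMIs. These 7 cells held 100 of the 127 Plvap UMIs (78.7%), at 2323 CPM (1890 to 2825), and 12 of the 16 Cldn5 UMIs (75.0%), at 279 CPM (144 to 487).

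The 7 cells did not carry the 2 genes alike. Ordered by their endothelial UMIs, which fell from 92 to 29, they had 26, 17, 0, 2, 11, 18 and 26 UMIs of Plvap. All 12 Cldn5 UMIs were in the third cell, the one with no Plvap. That cell also had 5 of the 6 UMIs of Slc2a1, the glucose transporter of the blood-brain barrier, and 42 UMIs of Ly6c1, but none of Emcn, a sialomucin of veins and capillaries, and none of Igfbp3. The other 6 had 1 to 18 UMIs of Emcn and 7 to 55 of Igfbp3. Other genes known from blood-brain barrier endothelium were mixed in the cell without Plvap. It had 6 UMIs of Bsg, 3 of Sox17 and 1 each of Abcb1a and Foxf2. It had none of Mfsd2a, Abcg2, Slco1c1, Slco1a4, Slc7a5, Slc16a1, Lef1, Tfrc and Spock2. Abcg2 went the other way from Slc2a1, with 2 UMIs in several of the cells that had Plvap. Kdr, the main receptor of the vascular growth factor VEGF, was at 0 in the third cell and also in the fourth. Ly6c1, Emcn and Kdr are among the markers that chose the cells, so their levels here are not independent of that choice. The first cell had 41 UMIs of mural markers beside 92 of endothelial ones, the fourth, with 2 Plvap UMIs, had 36 beside 31, and the second and the fifth had 87 and 34 UMIs of VLMC markers beside 87 and 31. Mural or VLMC markers thus equalled or exceeded the endothelial ones in 3 of the 7 cells, which are called endothelial cells here only by the rule that chose them. Of the other 6 members, the 7 cells had 6 UMIs of F11r and 1 of Tjp1, and none of Cldn3, Cldn9, Cldn10 and Ocln, which allows up to 69.7 CPM each.

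**Figure D2:**
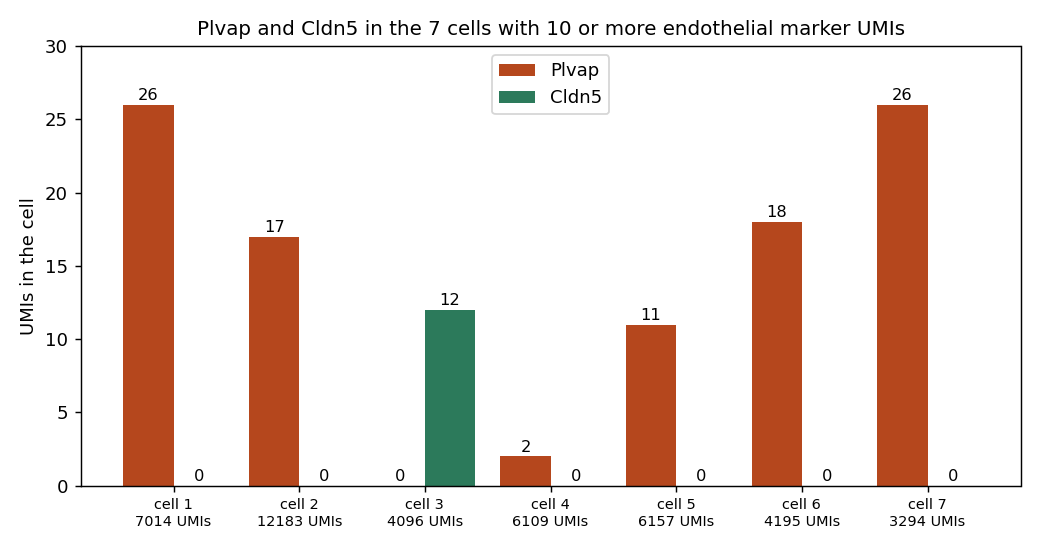
UMIs of Plvap and Cldn5 in each of the 7 cells with at least 10 UMIs of endothelial markers, ordered by those markers, with the total UMIs of each cell under its name. Plvap is present in 6 cells, at 2 to 26 UMIs, and Cldn5, at 12 UMIs, in the 1 cell that has no Plvap.

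The window before the Cldn5 start, chr16:18776597-18776846 on the plus strand (GRCm38.p6), is shown as that of the claudin of sealed capillaries. It has no match to CCGGAA, the core bound by ETS factors, on either strand, which 12.03% of windows hold, and its capitals mark 1 GC box.
Cldn5: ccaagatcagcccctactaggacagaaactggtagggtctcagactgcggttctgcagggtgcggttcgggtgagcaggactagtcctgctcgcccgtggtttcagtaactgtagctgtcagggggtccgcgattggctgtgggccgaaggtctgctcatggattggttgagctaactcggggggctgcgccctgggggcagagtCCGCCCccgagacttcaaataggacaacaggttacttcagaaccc

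The other claudins and junction genes were read from lists of the pathway. Of 24 other claudin genes listed, 23 were in the table and 15 had a UMI. In tanycyte-like cells the highest were Cldnd1 at 164 CPM, Cldn11 at 37.2 CPM and Cldn12 at 26.3 CPM, all far below Cldn10. In PTC-like cells Cldn7, a claudin of epithelial side walls, had 326 CPM (266 to 394), with 105 of its 146 UMIs, followed by Cldnd1 at 105 CPM and Cldn11 at 58.9 CPM. In the 7 endothelial cells only Cldnd1 had UMIs, 4 in all. Cldn11, the claudin of myelin, had 8081 CPM (7870 to 8296) in oligodendrocyte-like cells.

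Among the other junction membrane proteins, tanycyte-like cells had 330 CPM (304 to 358) of Ildr2, of the angulin family that seals the corners between 3 cells, 309 CPM (284 to 336) of Jam3 and 153 CPM (135 to 172) of Jam2, both junctional adhesion molecules. PTC-like cells had 90.0 CPM of Lsr, 62.0 CPM of Esam and 49.6 CPM of Jam3, and the 7 endothelial cells had 511 CPM (320 to 774) of Esam, the endothelial adhesion molecule, 209 CPM of Jam3 and 69.7 CPM of Lsr. Of the scaffolds, the highest in tanycyte-like cells were Amotl2, Mpp5 and Afdn at 75.0, 48.7 and 48.2 CPM, in PTC-like cells Arhgef2, Magi2 and Amotl1 at 65.1, 37.2 and 34.1 CPM, and in the endothelial cells Amotl1, Afdn and Cgnl1 at 139, 116 and 92.9 CPM. Of the adherens junction genes, N-cadherin (Cdh2) led in tanycyte-like cells with 599 CPM (564 to 636), before Ctnna1 at 145 CPM and Ctnnb1 at 90.9 CPM. PTC-like cells had 168, 80.7 and 77.5 CPM of Ctnnb1, Cdh2 and Ctnna1, and the endothelial cells 465, 302 and 302 CPM of Ctnnb1, Ctnna1 and Jup.

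Genes of fenestration and VEGF signalling differed by cell type in kind. Vegfa, the ligand, had 244 CPM (221.5 to 267) in tanycyte-like cells, with 445 of its 601 UMIs, before Cav2 at 42.7 CPM and Igfbp3 at 37.8 CPM. The endothelial cells had no Vegfa UMI. They had 2184 CPM (1765 to 2672) of its receptor Flt1, 2044 CPM (1639.5 to 2519) of the coreceptor Nrp1 and 3438 CPM of Igfbp3. Flt1 is among the markers that chose these cells, so its level there is not independent of that choice. The Nrp1 and Igfbp3 levels include cells in which mural or VLMC markers equalled or exceeded the endothelial ones. Among these were the fifth cell, with the most Nrp1 (25 UMIs), and the fourth, with the most Igfbp3 (55 UMIs). The sixth cell, with 30 UMIs of endothelial markers and 1 of VLMC markers, had 9 and 42. PTC-like cells had 27.9, 15.5 and 12.4 CPM of Ehd4, Nrp1 and Vegfa. Of the genes known from blood-brain barrier endothelium, Bsg, which carries lactate transporters to the membrane, led in all 3 cell types, with 1087, 1052 and 534 CPM in tanycyte-like, PTC-like and endothelial cells. It was followed by Slc2a1 at 132 CPM and Mfsd2a at 71.2 CPM in tanycyte-like cells, by Spock2 at 115 CPM and Slc2a1 at 83.8 CPM in PTC-like cells, and by Sox17 at 348 CPM and Abcg2 at 186 CPM in the endothelial cells.

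For the 7 members with at least 100 UMIs, the genes whose level moved most alike over the 13 groups were found by Pearson's r of log2(CPM + 1) among 8787 genes, as a description, since all groups share 1 library. For F11r they were Plekhf2, Vamp8 and Itgb5 (r = 0.89, 0.88 and 0.87). For Cldn9 they were Ces1d, the pituitary factor Pitx1 and the keratin Krt18 (0.97, 0.94 and 0.93), and those given for Cldn3 are Sfrp5 and Mob1b (0.82 and 0.79). For Cldn10 they were Adm, Nnat and Mia, which the study names as a tanycyte marker (0.96, 0.94 and 0.93). Nnat and Mia were themselves highest in ependymal-like cells, at 14981 and 1516 CPM. Ocln had Cox7a1, Hist1h4i and Ggnbp1 (0.88 each to 2 decimals), Tjp1 had Fam234a, Ctnnbip1 and Gm15417 (0.95, 0.95 and 0.94), and Plvap had Scara5, Lama2 and Mfap4 (0.90, 0.90 and 0.89), genes of the VLMC-like groups in which its few cells lie.

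The bulk libraries ask whether the same genes differ in the ME after the Braf allele is switched on in Rax+ cells. As the study describes the mutant tissue as a tumour, control ME is compared here with tumour-bearing ME. None of the 8 passed the test (edgeR quasi-likelihood, adjusted p under 0.05), and across all 20466 genes tested 0 passed, a percentage of 0. DESeq2 called 297 of 20316 genes (1.46%), and 1661 genes (8.12%) had an unadjusted p under 0.05 in edgeR. At an adjusted p under 0.1 edgeR called 14 genes (0.0684%), of which F11r was the 1 member. Among the 8 members, F11r, Plvap and Cldn9 had an unadjusted p under 0.05, each with the lower level in the mutants, against 3.89% of all genes in that direction. By DESeq2, F11r and Plvap passed (adjusted p = 1.6e-07 and 4.2e-04, where all alternatives ranged from 1.6e-07 to 0.9998 for F11r and from 1.0e-05 to 0.99 for Plvap) against 0.596% of all genes in that direction. The median log2 fold change of the 8 was -0.78, beside 0.13 over all genes tested, and 7 of 8 were below 0, beside 43.3% of all genes. In whole tissue, fewer cells of a type and less RNA per cell cannot be told apart.

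F11r had 109.7, 136 and 80.7 CPM in control libraries 1 to 3 and 32.2, 24.6, 23.7 and 28.6 CPM in mutant libraries 1 to 4. All mutants lay below all controls and close to each other. The means were 109 ± 27.7 (SD, n = 3) and 27.3 ± 3.90 (SD, n = 4), and the log2 fold change was -1.996 ± 0.292 (SE), a control level 3.99 times the mutant one, with an adjusted p of 0.078 by edgeR. The gene ranked 8 of 20466 by p. The estimate lay between -2.16 and -1.79 under all 17 alternatives, and the adjusted p fell under 0.05 with DESeq2, with no filter on low counts, with at least 10 counts in every library, without control 1, without control 3 and without replicate 1 of both groups. That last setting called 4102 of 22349 genes. Markers of macrophages and microglia, the cells with the highest F11r, had lower estimates for 9 of 9 genes (median log2 fold change -0.92), with summed levels of 905 to 2685 CPM in controls and 550 to 1268 CPM in mutants, which overlap, and none of the markers was at 0 in all libraries. The part of these cells in the F11r difference was not tested.

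Plvap, the protein of the fenestral diaphragm, had 229, 167 and 144 CPM in the controls and 69.2, 26.5, 33.2 and 11.97 CPM in the mutants. The groups did not overlap, although mutant 1 stood above the other mutants. The means were 180 ± 44.1 (SD, n = 3) and 35.2 ± 24.3 CPM (SD, n = 4), with a log2 fold change of -2.35 ± 0.49 (SE), 5.09 times, and an adjusted p of 0.26 by edgeR. The estimate ranged from -2.89 to -2.07 over the alternatives. Endothelial markers were lower too, with 8 of 9 estimates below 0, a median of -1.27, and sums of 210 to 502 CPM in controls and 125 to 220 CPM in mutants, which overlap, and none was at 0 in all libraries. Cdh5 was the exception at 0.77. Of the VLMC markers, 4 of 5 tested were lower, with sums of 1104 to 2918 CPM in controls and 431 to 792 CPM in mutants, which do not overlap. The part of endothelial or VLMC abundance in the Plvap difference was not tested. Plvap overlaps Gtpbp3 on the other strand, and Smart-seq2 does not keep strand, so reads of the overlap cannot be assigned.

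Cldn5, the other endothelial member, had an estimate below 0 too, in the main test and in all 17 alternatives. It had 12.5, 27.8 and 28.4 CPM in the controls and 18.1, 5.42, 21.0 and 17.7 CPM in the mutants, which overlap. Its log2 fold change was -0.56 ± 0.51 (SE, 95% interval -1.69 to 0.56), with an adjusted p of 0.84 by edgeR. The difference between the fold changes of Plvap and Cldn5 was not tested.

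Cldn9 had 215, 147 and 115 CPM in the controls and 100.02, 45.2, 118 and 41.1 CPM in the mutants. Only mutant 3 reached into the range of the controls. The log2 fold change was -1.07 ± 0.42 (SE), with an unadjusted p of 0.028 and an adjusted p of 0.54 by edgeR. Of the pars tuberalis markers, 5 of 6 had lower estimates, with a median of -1.28 and sums of 1366 to 4793 CPM in controls and 300 to 1358 CPM in mutants. Tshb was the exception at 0.56, and none was at 0 in all libraries. The part of pars tuberalis tissue in these dissections was not tested. Cldn3, the other claudin with its highest level in PTC-like cells, had 84.6, 23.5 and 1.88 CPM in the controls and 27.3, 10.1, 37.6 and 4.83 CPM in the mutants, a spread so wide within each group that its log2 fold change of -0.88 ± 0.95 (SE) turned to 0.62 without control 1. An antisense gene, Wbscr25, overlaps Cldn3. The summed markers of other pituitary endocrine cells were 15256, 706 and 2477 CPM in the controls and 16400, 1882, 20161 and 971 CPM in the mutants, so that control 1, mutant 1 and mutant 3, the libraries with the most of these markers, were also the highest of their groups for Cldn9 and Cldn3. Of the 4 markers of other pituitary endocrine cells tested, 3 had lower estimates in the mutants, with a median log2 fold change of -2.93. The part of pituitary tissue in Cldn9 and Cldn3 was not tested.

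None of the 3 members highest in tanycyte-like cells passed the test. Cldn10 had 376, 474 and 443 CPM in the controls and 417, 361, 311 and 231 CPM in the mutants, with a log2 fold change of -0.39 ± 0.29 (SE, 95% interval -1.02 to 0.25) and an adjusted p of 0.79. Ocln had 39.3, 64.8 and 69.9 CPM against 51.5, 23.3, 51.6 and 17.9 CPM, with -0.69 ± 0.43 (SE, -1.63 to 0.26) and an adjusted p of 0.74. In both genes the groups overlap. Tjp1 had 29.5, 36.2 and 36.1 CPM in the controls and 41.4, 55.3, 43.1 and 44.0 CPM in the mutants. It was the 1 member with all mutants above all controls, where 5.83% of all genes tested lie, while F11r and Plvap were the 2 members with all mutants below, where 3.18% lie. The Tjp1 difference of 0.44 ± 0.28 (SE, -0.184 to 1.059) had an adjusted p of 0.75. Tanycyte markers had 3 of 8 estimates below 0 and sums of 939 to 1132 CPM in controls and 815 to 1297 CPM in mutants.

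**Figure D3:**
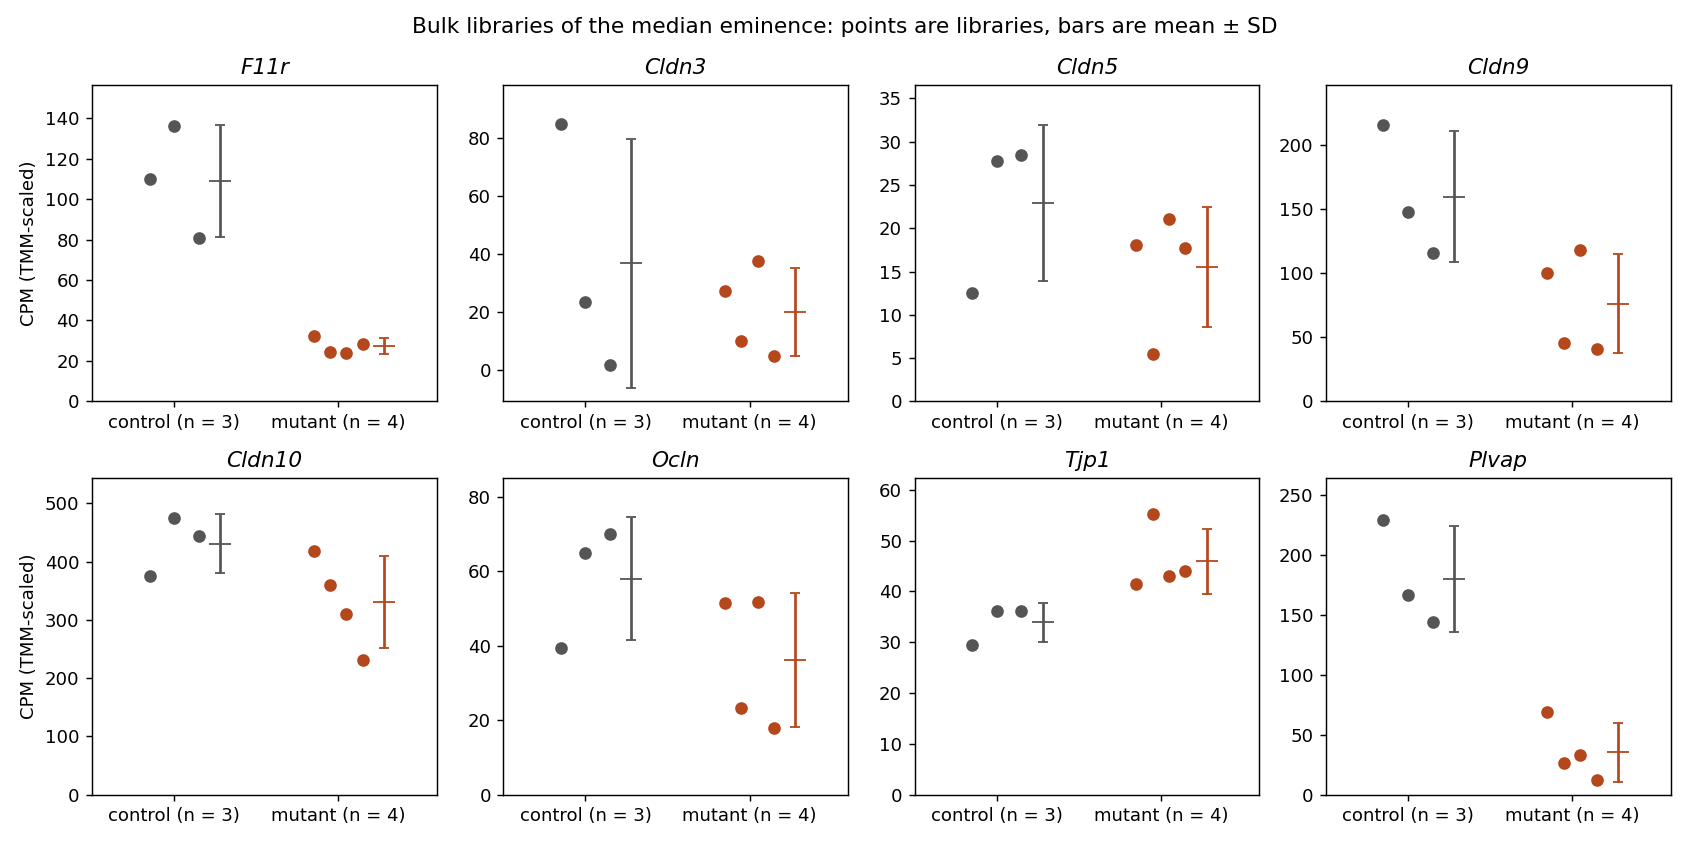
CPM of the 8 genes in each bulk library, with points for libraries and bars for the mean ± SD of 3 controls and 4 mutants, each panel on its own linear axis. The mutant libraries lie below all controls for F11r (23.7 to 32.2 against 80.7 to 136 CPM) and Plvap (11.97 to 69.2 against 144 to 229 CPM), above them for Tjp1, and overlap with them for the other 5.

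**Figure D4:**
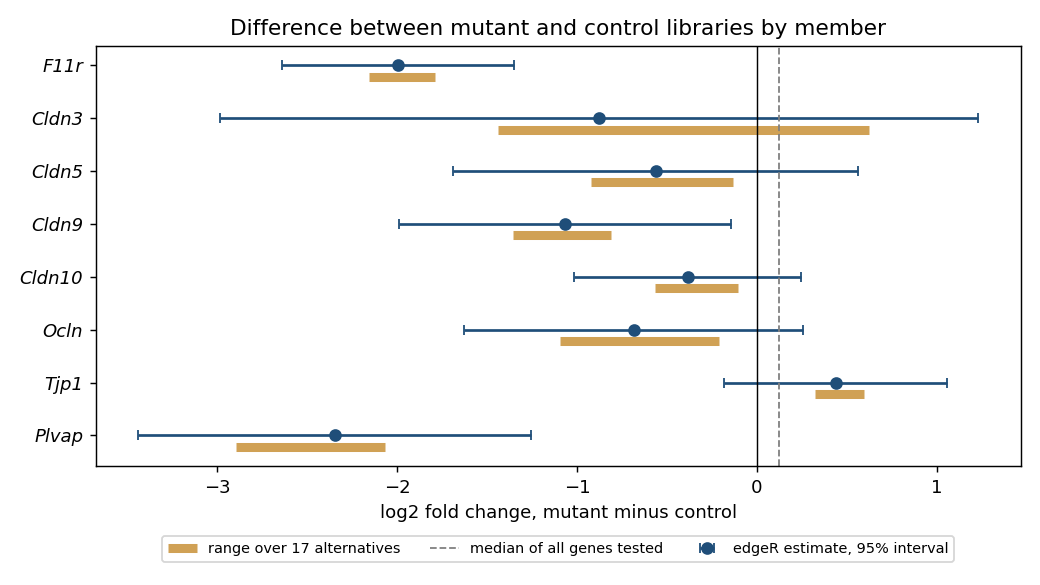
Log2 fold change of each gene, mutant minus control, with its edgeR 95% interval (points and thin bars), the range of the estimate over 17 alternatives (thick bars) and the median of all genes tested (dashed line, 0.13). The intervals of F11r, Plvap and Cldn9 do not reach 0, and the alternatives cross 0 for Cldn3 alone.

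Levels of the members can be compared in the controls per kilobase of exon, from GENCODE M21 exons on GRCm38. Cldn10 was highest at 166 ± 19.4 CPM per kb (SD, n = 3), followed by Cldn9 at 110 ± 35.3, Plvap at 90.5 ± 22.2, F11r at 40.9 ± 10.4, Cldn3 at 29.1 ± 34.1, Cldn5 at 16.2 ± 6.35, Ocln at 13.7 ± 3.88 and Tjp1 at 4.34 ± 0.491. Cldn9 and Plvap, and Cldn5 and Ocln, differ by less than the larger of their SDs, as does Cldn3 from each of F11r, Cldn5, Ocln and Tjp1. In the mutants the same measure was 127 ± 30.5 for Cldn10, 52.7 ± 26.8 for Cldn9, 17.7 ± 12.3 for Plvap and 10.2 ± 1.46 for F11r (SD, n = 4).

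The other genes of the pathway gave no call in edgeR either. Of 102 genes listed, 88 were tested and 0 passed, with a median log2 fold change of -0.11 beside 0.13 over all genes. Unadjusted p was under 0.05 for 10 of 88 with lower levels in the mutants, beside 3.89% of all genes, and for 3 of 88 with higher levels, beside 4.23%. The median was -0.55 for 12 other claudins tested, -0.23 for 11 other junction membrane proteins, -0.38 for 17 genes of fenestration, caveolae and VEGF, 0.29 for 23 scaffolds and regulators, 0.49 for 11 adherens junction genes and 0.24 for 14 blood-brain barrier genes. DESeq2 called 5 of them, Cldn14, Esam, Emcn and Exoc3l2 lower, beside 0.596% of all genes, and Bves higher, beside 0.866%. The lowest estimates were those of Exoc3l2, an endothelial exocyst subunit, with 3.05, 11.4 and 7.02 CPM in the controls and 0.0999, 0.625, 1.17 and 0.894 CPM in the mutants (log2 fold change -3.36 ± 0.97 SE, adjusted p = 0.44), and of Foxf2, a transcription factor listed here among the blood-brain barrier genes, with 5.08, 10.3 and 13.2 CPM against 0.899, 1.67, 1.34 and 3.93 CPM (-2.29 ± 0.74 SE, adjusted p = 0.47). The highest was that of Bves, a junction membrane protein known from muscle, with 1 count over all controls and 135 over the mutants, a ratio of 137 with a counting interval of 24.2 to 5457. Pard6b, a polarity protein, came next, with 2.03, 0 and 0 CPM in the controls and 2.30, 3.02, 2.51 and 4.65 CPM in the mutants (2.20 ± 1.62 SE, adjusted p = 0.79). Both genes were at 0 in controls 2 and 3, the libraries with the most counts and the fewest genes detected (21986 and 17874), and the part of library complexity in these differences was not tested.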

How the data were processed

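The authors deposited a UMI count for each gene and cell of the 10x library, made with Cell Ranger (2.0.1 in the submitters' processing notes), GRCm38/mm10 and Ensembl 84, and raw read counts per Ensembl gene for the bulk libraries, whose aligner and counter are not given in the sources used here. The notes name DESeq2. The members and gene lists were chosen with earlier results of these data known.

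Cells were clustered in Seurat 5.3.0 by the settings of the study (scale factor 10000, mean 0.02 to 8, dispersion at least 0.5), with 20 components and resolution 0.8, without members and pathway genes. Clusters with at least 3 endothelial markers, a rule set after the data were seen, were clustered again with 10 components. A marker counted at 3 times the CPM of all other cells and 3 UMIs, and a group was named from at least 3 markers. Scrublet in scanpy 1.11.5 called 3 doublets, kept in the main setting. Shares carry Clopper-Pearson 95% intervals, and a count of 0 the limit of 3 counts. Intervals cover counting error only. Bulk symbols came from the 10x gene table.

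Bulk libraries were tested with edgeR 4.0.16 (glmQLFTest, TMM, filterByExpr, two-sided, Benjamini-Hochberg over all genes) in R 4.3.3, checked on simulated data, with DESeq2 1.42.0 and limma 3.58.1 as alternatives. Nothing states that libraries are separate litters or days, so p-values measure the spread between these mice. F11r shares 0.868% of its stretches of 50 bases with transcripts of other genes, and the other members share none. Promoter windows were found for 6 of 8 members in RefSeq. Named genes were all members, of each pathway list the 3 with the highest CPM in tanycyte-like, PTC-like and endothelial cells, in bulk the 2 highest and 2 lowest log2 fold changes where none passed, and the 3 genes most alike to each member, of which 1 is not reported here. The genes called by DESeq2 were named after their values were seen.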

Additional observations from a re-analysis of the deposited data

How the results depend on the processing

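The number of genes called in bulk depended on the setting: 0 in edgeR, but 297 with DESeq2, 1 with its size factors or upper-quartile scaling, 3 with library sizes alone, 240 with no filter, 13 with at least 10 counts in every library, 14 at adjusted p under 0.1, and, among alternatives chosen after seeing the data, 1 with detected genes as a covariate and 4102 without replicate 1 of both groups. Leaving out 1 library gave 0 to 45 calls, with 45 without control 1 and 16 without control 3. Limma-voom gave 0. The median log2 fold change of all genes moved from 0.13 to 0.25 with library sizes alone. Over all settings it lay between -0.006 with at least 10 counts in every library and 0.59 with no filter. Pathway genes called numbered 5, 4 and 5 with DESeq2, no filter and without replicate 1 of both groups, and 0 otherwise. Over all genes these 3 settings called 297 of 20316, 240 of 47682 and 4102 of 22349. F11r passed at -1.99 (DESeq2), -2.02 (no filter), -1.96 (10 counts) and -2.05 (without replicate 1 of both groups). With 1 library left out it ranged from -2.16 to -1.79 and passed without control 1 and without control 3, and not in the other 5 cases. Plvap passed at -2.38, -2.33 and -2.66 in the first, second and last of these, and ranged from -2.89 to -2.07, passing in none, when leaving out 1 library. Cldn3 turned to 0.13 with limma-voom and 0.49 without replicate 1 of both groups, and ranged from -1.44 to 0.62 with 1 library left out. The 5 other members kept their direction and their side of the threshold in all 17 alternatives. The cause of these changes was not tested.

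With the replicate number as a block 0 genes were called, F11r stood at -2.0 and Plvap at -2.16. Libraries that share a number deviated from their group means with r of -0.45, -0.0076 and -0.23, none correlated best with its own number, and they were not treated as pairs.

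In single cells, Cldn10 in the tanycyte class was 1442 CPM at resolution 0.4 and with 30 components, 1459.95 CPM with 10 components, 1445 CPM with all variable genes and 1693 CPM as an unweighted mean over cells. In these other clusterings no group was named ependymal, and the tanycyte class held 213 to 227 cells against 180. An ependymal class of 46 cells stayed apart at resolution 1.2 and without doublets. The comparisons of tanycyte-like with ependymal-like cells therefore depend on the clustering. Cldn9 in the PTC class was 298 CPM with all variable genes and 288 CPM without doublets. Over the vascular class Plvap had 78.9 CPM and Cldn5 9.37 CPM, against 105 CPM of Plvap as an unweighted mean over cells, 1187 and 204 CPM in the planned endothelial cells, 2323 and 279 CPM in the 7 cells, and 3764 and 645 CPM in the planned cells without the cell rich in pars tuberalis markers. The levels of F11r, Cldn3, Ocln and Tjp1 in their highest class stayed within their counting intervals. One library without replicates limits all single-cell levels, and Plvap and Cldn5 rest mainly on 7 cells.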

Other observations

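A group of 23 cells with 4 of 6 markers of the arachnoid barrier or dural border held several junction and transport genes, named after their values were seen. Its level of Cldn11 was 739 CPM (633 to 856), below the 8081 CPM of oligodendrocyte-like cells, and those of the transporters Abcg2 and Slc16a1 were 357 CPM (285 to 441) and 352 CPM (281 to 436), the highest of the 13 groups for both. E-cadherin (Cdh1), which is 1 of its markers, had 159.5 CPM, and Ildr2 had 294 CPM (229 to 371), near the tanycyte-like 330 CPM. Of the 8 members this group had 7 UMIs of F11r, 9 of Cldn10 and 4 each of Ocln and Tjp1, and none of Cldn3, Cldn5, Cldn9 and Plvap, which allows up to 12.6 CPM each.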
